A study of Homo sapiens with 47 samples.

Results

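A guide RNA labelled EZH2g1 was used with both dPspCas13b and dRfxCas13d. The label names EZH2, the enzyme of Polycomb repressive complex 2 that methylates histone H3. The sites of each protein under this label are compared here. The members are all 59 sites of the deposited dPspCas13b list and all 966 sites of the deposited dRfxCas13d list, 1025 of the 2232378 sites and clusters in the lists of the whole series. The study mapped where proteins touch RNA in Lenti-X 293T, an established line derived from human embryonic kidney and favoured for lentivirus production. It used uSpyCLIP-seq, in which UV-C irradiation of cells that stably express the protein fixes it to RNA, RNase I shortens that RNA, and the fragments held by the captured protein are sequenced. The series holds 47 libraries in 20 groups.

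Both EZH2g1 groups were crosslinked, and each has 3 libraries and 1 list. The lists of the same proteins, crosslinked without guide and with a second guide, EZH2g2, serve as background, again with 3 libraries and 1 list per group. The lists give chromosome, start, end and strand on hg38 and no score or read count, so read depth is unknown. Spread between replicates cannot be measured from a single list per group, and no p-value is given. Intervals in parentheses are exact Clopper-Pearson 95% intervals of a share and cover counting error only. The sequence of the guide and how it reached the cells are not given in the sources used. Only the label says that both proteins had the same guide. The caller of the sites and any filtering of guide lists against other lists are not given either. Exons, introns and untranslated regions were not told apart here, since only gene spans were used.

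Cas13 proteins are RNA-guided ribonucleases of type VI CRISPR systems. Their guide RNA pairs with a complementary stretch of a transcript, and the dead variants used here (the d in the names) have lost cleavage and keep binding. The proteins read the same kind of spacer with opposite architecture: the direct repeat that the protein grips stands at the 3′ end of the guide RNA in Cas13b and at the 5′ end in Cas13d. A transcript other than the intended one can be bound where it resembles the target, or through contacts that do not need the guide.

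Most dPspCas13b sites were also dRfxCas13d sites, while the reverse did not hold. Of the 59 dPspCas13b sites, 40 shared 1 nt or more with a dRfxCas13d site of the same strand, or 67.8% (54.4 to 79.4). These 40 met 43 of the 966 dRfxCas13d sites, or 4.45% (3.24 to 5.95). The dRfxCas13d list was 16.4 times as long, with 172459 nt covered after merging against 7659 nt. The remaining 19 dPspCas13b sites and 923 dRfxCas13d sites belonged to 1 protein.

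The dPspCas13b EZH2g1 sites overlapped dRfxCas13d lists with another guide, or with none, far less. With EZH2g2, the dRfxCas13d list held 1994 sites, and 2 of the 59 dPspCas13b EZH2g1 sites overlapped them, or 3.39% (0.413 to 11.7). Without guide it held 2808 sites, and again 2 of 59 overlapped. Seen from the other protein, 0.8% of the 625 dPspCas13b sites with EZH2g2 and 1.08% of the 4701 without guide overlapped a dRfxCas13d EZH2g1 site. In the opposite direction, 0.1% of the dRfxCas13d sites with EZH2g2 and 0.0712% of those without guide overlapped a dPspCas13b EZH2g1 site.

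For dRfxCas13d the contrast was smaller. Its EZH2g1 sites overlapped the unguided dPspCas13b list in 37 of 966 cases, or 3.83% (2.71 to 5.24), close to the 43 with dPspCas13b EZH2g1. They overlapped the unguided list of their own protein in 22 cases, or 2.28% (1.43 to 3.43). With EZH2g2 the numbers were 7 for dPspCas13b and 12 for dRfxCas13d. The unguided dPspCas13b list covered 516258 nt, against 7659 nt of its EZH2g1 list. Between the proteins under a matched condition, 8.32% (6.28 to 10.8) of dPspCas13b and 2.11% (1.52 to 2.84) of dRfxCas13d sites with EZH2g2 overlapped. Without guide these shares were 11.7% (10.8 to 12.7) and 14.1% (12.8 to 15.4), so the share of dRfxCas13d sites was higher without guide than with EZH2g1. The lengths of the lists differ in each of these comparisons. Overlapping sites of 1 list were counted separately, and the 4701 unguided dPspCas13b sites merged into 3436.

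The pattern was the same when counted by genes. The dPspCas13b sites lay in 55 genes and the dRfxCas13d sites in 836, and 37 genes held both. All 37 held a pair of overlapping sites, so no gene carried the proteins at separate places alone. Of the 54 protein-coding genes with a dPspCas13b site, 36 had a dRfxCas13d site, or 66.7% (52.5 to 78.9). Among all protein-coding genes 4.1% had one, among those with a PTBP1 cluster at 10000000 cells 6.46%, and among those with a dPspCas13b site without guide or with EZH2g2 11.5%.

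EZH2 itself, on the minus strand of chromosome 7 from 148807383 to 148884291, held 2 dPspCas13b and 3 dRfxCas13d sites with EZH2g1, and all of them were common. At the first place, the dPspCas13b site ran from 148819567 to 148819738 and the dRfxCas13d site from 148819524 to 148819755. The wider site reached 17 nt further 5′ and 43 nt further 3′ along the RNA. At the second place, nearer the 3′ end of the gene, the dPspCas13b site ran from 148818032 to 148818173. The dRfxCas13d site that shared most with it ran from 148817972 to 148818186, 13 nt further 5′ and 60 nt further 3′. Another dRfxCas13d site, from 148817890 to 148818057, overlapped the same dPspCas13b site. The first place lay about 84.0% of the way along the gene span and the second about 86.1%. The second place was also listed for both proteins with EZH2g2, and the first was not. With EZH2g2, dRfxCas13d had a further site nearer the 3′ end, from 148815733 to 148815906, where dPspCas13b had none. The paralog EZH1 had no site in either EZH2g1 list.

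**Figure D1:**
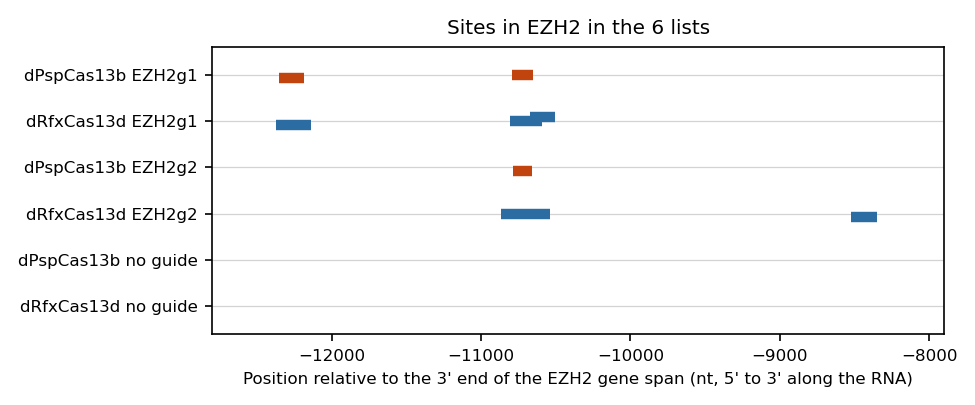
Sites in the EZH2 gene in the 6 lists, drawn as bars by their position relative to the 3′ end of the gene span (nt, 5′ to 3′ along the RNA); bars of 1 list are staggered only so that overlapping sites can be told apart. Both proteins have a bar at the left place with EZH2g1 alone, both have a bar at the middle place with either guide, and the lists without guide have none. The bar at the right belongs to dRfxCas13d with EZH2g2 alone.

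Paired sites lay on top of each other. Each of the 40 dPspCas13b sites was paired with the dRfxCas13d site with which it shared most. In 38 of 40 pairs the dRfxCas13d site contained the dPspCas13b site whole. The exceptions were TAB2, an adaptor of the kinase TAK1, where the dPspCas13b site reached 6 nt further 5′, and TRIP6, a zyxin-family adaptor, where it reached 2 nt further 3′. The shared stretch ranged from 114 to 178 nt with a median of 133 nt. It made up a median of 67.2% of the dRfxCas13d site, from 28.8% in PPP1R9B, the neuronal actin scaffold spinophilin, to 93.3% in TRIP6.

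Midpoints were close. The dRfxCas13d midpoint lay 3′ of the dPspCas13b midpoint in 25 pairs and 5′ of it in 15. The median offset was 6.75 nt in the 3′ direction, with quartiles of -5.5 and 14 nt and a range from -52 to 98.5 nt. The 95% order-statistic interval of this median over the pairs, from -1 to 10 nt, includes 0. Pairs are not replicates of a condition, and 2 dRfxCas13d sites each stand in 2 pairs. The interval thus describes these pairs and is no test of the offset. In 28 pairs the midpoints were within 20 nt of each other and in 37 within 50 nt. The 3 others were PPP1R9B (98.5 nt) and EIF3A (52.5 nt), a scaffold subunit of translation initiation factor eIF3, on the 3′ side, and NCAPD2 (-52 nt), a condensin subunit, on the 5′ side. The median was 3 nt in the 19 pairs on the plus strand and 8 nt in the 21 on the minus strand.

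The extra width of dRfxCas13d extended to both sides. The dRfxCas13d site was wider in all 40 pairs, by 6 to 307 nt with a median of 70.5 nt. It extended beyond the dPspCas13b site by a median of 26.5 nt on the 5′ side (quartiles 15 and 49.8) and 39 nt on the 3′ side (quartiles 13.8 and 67). The order-statistic intervals of these medians over the pairs, 17 to 46 nt and 16 to 51 nt, overlap. Plus-strand pairs had medians of 21 nt on the 5′ side and 18 nt on the 3′ side, and minus-strand pairs 30 and 43 nt. A longer 3′ extension was thus not seen on both strands.

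Widths differed between the proteins with or without pairing. dPspCas13b sites had a median width of 128 nt (108 to 178) and dRfxCas13d sites 169 nt (131 to 448). The shortest site was 107 or 108 nt in each of the 3 dPspCas13b lists and 131 nt in each of the 3 dRfxCas13d lists, whatever the guide. A minimum width thus moved with the protein in the deposited lists, and its part in the width difference was not tested. Within each protein, common sites were the wider ones, with a median of 134.5 against 122 nt for dPspCas13b and 204 against 168 nt for dRfxCas13d. A wide site has more chance of overlapping another. With every site replaced by 100 nt around its midpoint, 40 of the 59 dPspCas13b sites were common. For dRfxCas13d the count was 39 of 966, against 43 at full width. The count of 40 follows from the offsets of the pairs, none over 98.5 nt. Whether width made a site more often common was not tested.

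**Figure D2:**
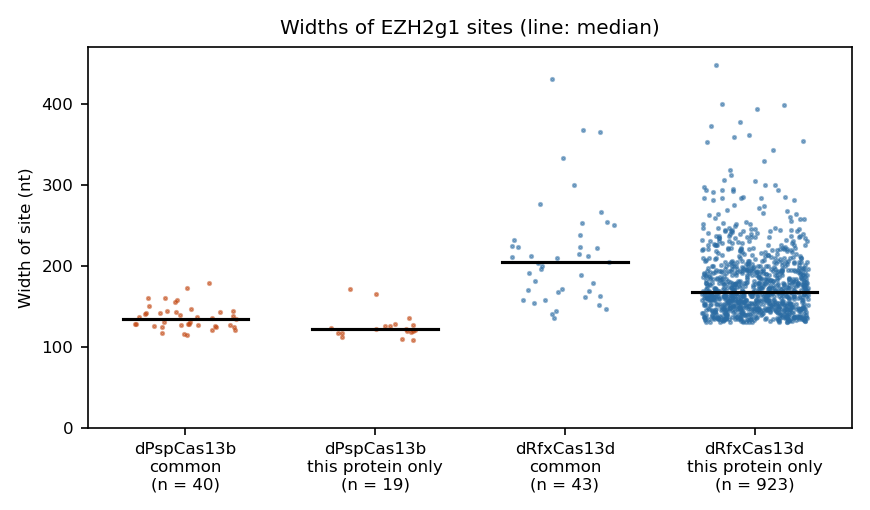
Width in nt of every EZH2g1 site, one point each, by protein and by whether it overlapped a site of the other protein; black lines are medians (134.5, 122, 204 and 168 nt from left to right). The lower edge of the points stands at 108 nt for dPspCas13b and at 131 nt for dRfxCas13d.

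The pairs with most shared nt are given with their positions on hg38. The longest shared stretch was in ITM2B, a transmembrane protein linked to familial dementias, with a dPspCas13b site from 48261494 to 48261671 of chromosome 13 inside a dRfxCas13d site from 48261439 to 48261737. After the first EZH2 pair followed KDM6A, an X-linked demethylase that removes the mark EZH2 writes. Its sites, from 45070063 to 45070222 and from 45070055 to 45070232 of chromosome X, differed by 8 nt at the 5′ and 10 nt at the 3′ end. In SEC63, a partner of the protein translocation channel of the endoplasmic reticulum, the sites ran from 107871637 to 107871796 and from 107871577 to 107871842 of chromosome 6. In SH3GLB1, the endophilin B1 gene, they ran from 86735032 to 86735189 and from 86735011 to 86735206 of chromosome 1.

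The dynein light chain gene DYNLT1 had a dPspCas13b site from 158637789 to 158637943 of chromosome 6, inside a dRfxCas13d site from 158637738 to 158637960. CTNNB1, which encodes beta-catenin of the Wnt pathway, had its pair at 41227185 to 41227334 and 41227140 to 41227377 of chromosome 3, with midpoints 1 nt apart. BRIX1, a ribosome assembly factor, had its pair at 34923082 to 34923227 and 34923056 to 34923267 of chromosome 5. The span of TTC23L covers this place too, on the same strand. The ubiquitin-conjugating enzyme gene UBE2D2 had its pair at 139614840 to 139614983 and 139614803 to 139614993 of the same chromosome, and the centriole gene CEP120 at 123418382 to 123418524 and 123418344 to 123418546.

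YLPM1, the gene of a nuclear protein, had sites from 74797703 to 74797846 and from 74797646 to 74797921 of chromosome 14. EPC2, related to the enhancer of polycomb of the fly, had sites from 148771148 to 148771290 and from 148771128 to 148771336 of chromosome 2. GPHN, which encodes gephyrin, the scaffold of inhibitory synapses, had sites from 67181584 to 67181725 and from 67181577 to 67181738 of chromosome 14. CHAF1A, the large subunit of the histone chaperone CAF-1, had sites from 4409096 to 4409235 and from 4409034 to 4409366 of chromosome 19. MBIP, a subunit of the ATAC acetyltransferase complex, had 2 overlapping dPspCas13b sites, from 36298740 to 36298878 and from 36298697 to 36298824 of chromosome 14, inside 1 dRfxCas13d site from 36298655 to 36298908.

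EIF4G3, a translation initiation scaffold, had its pair at 20806638 to 20806774 and 20806601 to 20806822 of chromosome 1. The zinc finger gene ZNF24 had its pair at 35334095 to 35334230 and 35334049 to 35334260 of chromosome 18. CBX5, which encodes the heterochromatin protein HP1 alpha, had nearly equal sites, at 54237134 to 54237268 and 54237118 to 54237271 of chromosome 12. MAD2L1, of the spindle checkpoint, had its pair at 120058694 to 120058827 and 120058682 to 120058851 of chromosome 4.

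The other pairs lay in the following genes. RNF20 is the ligase that ubiquitinates histone H2B, SNAPIN a SNARE-associated protein, SF3B5 a subunit of the splicing factor SF3B and DDX17 an RNA helicase. AKT2 is a kinase of insulin signalling, TNRC6B a partner of Argonaute in silencing by microRNAs, FCF1 a ribosome biogenesis factor and MNX1 a homeobox factor. BRWD1 is a bromodomain protein and ZNF644 a zinc finger protein. FAM199X and C4orf46 are named only. TTC28-AS1, a noncoding antisense gene, held the only pair outside protein-coding genes. MNX1 had 2 overlapping dPspCas13b sites inside 1 dRfxCas13d site. With TAB2, TRIP6, EIF3A, PPP1R9B and NCAPD2, described above, the 40 pairs lay in 37 genes.

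Few common sites appeared in another list. Among the 40 dPspCas13b members, the second EZH2 site was listed for both proteins with EZH2g2, and the CHAF1A site for dRfxCas13d with EZH2g2. The CBX5 site was in the unguided dRfxCas13d list and the ZNF24 site in the unguided dPspCas13b list. PTBP1 clusters at 10000000 cells, which mark RNA contacts of an unrelated splicing regulator, were overlapped by 8 of the 40, or 20.0% (9.05 to 35.6), and by 5 of the 19 others.

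The 19 sites of dPspCas13b alone lay in 18 genes, and no dRfxCas13d EZH2g1 site lay elsewhere in those genes. The nearest dRfxCas13d site on the same strand was at least 157701 nt away. Each dPspCas13b site was thus either common or far from any dRfxCas13d EZH2g1 site. ATF6, a sensor of unfolded protein in the endoplasmic reticulum, held 2 of them, from 161792156 to 161792277 and from 161912240 to 161912410 of chromosome 1. XBP1, a transcription factor of the same stress response, held 1, from 28795572 to 28795690 of chromosome 22. ERP44, a chaperone of the early secretory pathway, held 1 at the very start of the gene, from 100098805 to 100098969 of chromosome 9.

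The ERP44 site was the one dPspCas13b EZH2g1 site with letters in the RefSeq promoter table of GRCh38.p14, which covers its 5′ end along the RNA. The stretch, at chr9:100098951-100098969 on the minus strand, 5′ to 3′, is shown as the only piece of a dPspCas13b site whose sequence was at hand:
ERP44: cgaggtgccgctgcctgga

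Other genes with a site of dPspCas13b alone were APC, the negative regulator of beta-catenin, from 112838004 to 112838128 of chromosome 5, and PHC3, a subunit of Polycomb repressive complex 1, from 170149143 to 170149265 of chromosome 3. RNMT, the messenger RNA cap methyltransferase, had a site from 13761154 to 13761281 of chromosome 18. The kinetochore gene NDC80 had a site from 2572921 to 2573055 of the same chromosome. Further genes were SORCS2, ZBTB44, AP4E1, CRTC2, OLFML1, IFT22, RNF138, TIMP2, MED8 and ABCE1. The ZBTB44 site was also in the unguided dRfxCas13d list, and no other of the 19 was in any of the 4 background lists. The table used gave no strand for the genes of 10 dPspCas13b sites, among them SORCS2, CRTC2, OLFML1, IFT22, RNMT, TIMP2, MED8, ITM2B and EIF3A, so these names rest on position. For SORCS2 and IFT22, PTBP1 clusters gave no strand either. A strand taken from such clusters, as for OLFML1, can be that of an antisense transcript.

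The 923 sites of dRfxCas13d alone lay mostly in genes without dPspCas13b. Of these, 17 lay in 12 of the genes with a common pair, the nearest of them 81 and 168 nt from the dPspCas13b site of SF3B5 and 212 nt from that of NCAPD2. DYNLT1 had 3 such sites, from 158637126 to 158637272, 158636712 to 158636896 and 158636586 to 158636745 of chromosome 6, all 3′ of the common pair. FCF1 had 1 on either side of its pair, at 74732680 to 74732813 and 74734816 to 74734957 of chromosome 14. The others were in AKT2, BRIX1, DDX17, EPC2, MAD2L1, MBIP, MNX1 and RNF20. NCAPD2 and SF3B5 had 2 each.

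Genes with both proteins more often held several dRfxCas13d sites. Over 1 dRfxCas13d site was found in 15 of the 37 genes with both, or 40.5% (24.8 to 57.9), and in 89 of the 799 with dRfxCas13d alone, or 11.1% (9.04 to 13.5). After overlapping sites were merged the counts were 13 and 77. A gene with more dRfxCas13d sites also has more chances to meet a dPspCas13b site, so the groups are not independent of the number compared.

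Among dRfxCas13d genes, 14 held 3 or more sites: DYNLT1, MEA1, SF3B5 and XIST with 4 each, and AKAP8, EZH2, FCF1, MNX1, NCAPD2, NDUFA10, POT1, RNF166, SLC25A36 and TCFL5 with 3 each. Of these 14, 6 held a dPspCas13b EZH2g1 site: DYNLT1, SF3B5, EZH2, FCF1, MNX1 and NCAPD2. In SF3B5, a gene of 690 nt, the 4 dRfxCas13d sites merged into 2 stretches. MEA1, a gene of 5744 nt, held the widest dRfxCas13d site of the list, 448 nt from 43012242 to 43012689 of chromosome 6, and had no dPspCas13b site with either guide or none. AKAP8, a nuclear anchor of protein kinase A, had 2 dRfxCas13d sites with EZH2g2 as well. XIST, the noncoding RNA of X inactivation, had no dPspCas13b site with EZH2g1 and 21 without guide.

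Among all protein-coding genes, 0.27% held a dPspCas13b and 4.1% a dRfxCas13d EZH2g1 site, and the listed groups are set beside these shares. Each group rests on few genes. Of 13 genes of Polycomb repressive complex 2 and its partners, EZH2 alone had an EZH2g1 site, for both proteins. In the longer EZH2g2 lists, dPspCas13b had sites in 1 of the 13 and dRfxCas13d in 5 (38.5%). Without guide, each protein had sites in 3 (23.1%). Of 20 genes of Polycomb repressive complex 1, dPspCas13b had a site in PHC3 and dRfxCas13d in PHC1. For these 20, the counts for dPspCas13b and dRfxCas13d were 1 and 4 with EZH2g2, and 4 and 3 without guide. Of 18 histone lysine demethylase genes, dPspCas13b had a site in KDM6A and dRfxCas13d in 4 (22.2%), namely KDM6A, KDM1A, KDM1B and PHF8. For dRfxCas13d this share was also 22.2% with EZH2g2 and 33.3% without guide, in longer lists. Of 509 zinc finger genes with a ZNF symbol, dPspCas13b had sites in ZNF24 and ZNF644, both common, and dRfxCas13d in 12 genes (2.36%).

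Ribosomal protein, chaperone and listed noncoding genes had no site in the dPspCas13b EZH2g1 list. Of 88 cytosolic ribosomal protein genes, it had a site in 0, and dRfxCas13d had 6 sites in 5 genes (5.68%), among them RPS15A with 2. That is 0.621% of the dRfxCas13d EZH2g1 sites, against 2.21% of its unguided sites and 2.02% of unguided dPspCas13b sites. With EZH2g2 the shares were 0.903% for dRfxCas13d and 0.8% for dPspCas13b. Of 15 heat shock chaperone genes, dPspCas13b had a site in 0 and dRfxCas13d in 2 (13.3%), DNAJA1 and DNAJB1. For dRfxCas13d this share was 20% with EZH2g2 and 73.3% without guide. Of 12 long noncoding RNA genes, dPspCas13b again had a site in 0, and dRfxCas13d had 7 sites in 3, namely XIST, TUG1 with 2 and JPX with 1. That is 0.725% of its EZH2g1 sites, against 0.142% of its unguided sites, 0.1% of its EZH2g2 sites and 0.681% of unguided dPspCas13b sites. Of the 7 sites, 4 were in XIST. Unguided dRfxCas13d had sites in 3 of the 12 genes as well. Of all genes typed as long noncoding in RefSeq, 0.0656% held a dRfxCas13d EZH2g1 site. TUG1 is typed as protein-coding there and is not in that share, so the share and the list are not defined alike. A count of 0 among 59 sites allows a share of up to 5.08% (3 counts), above the 2.02% of the unguided list, so a lower share was not detectable with so few sites.

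The shares of sites near either end of genes had overlapping intervals for the proteins. Protein-coding genes held 58 of the 59 dPspCas13b sites and 940 of the 966 dRfxCas13d sites. Positions were measured along the gene span, introns included. The last 2000 nt held 27.6% (16.7 to 40.9) of the dPspCas13b sites and 26.0% (23.2 to 28.9) of the dRfxCas13d sites. The last 10% of the span held 25.9% (15.3 to 39.0) and 31.5% (28.5 to 34.6), and the first 10% held 8.62% (2.86 to 19.0) and 7.23% (5.66 to 9.08). In the ninth bin of 10% the shares were 22.4% (12.5 to 35.3) and 12.8% (10.7 to 15.1). The median position was 79.5% of the span for dPspCas13b and 76.1% for dRfxCas13d. The median distance of the midpoint from the 3′ end was 6442 and 6480 nt, in genes of a median length of 42274 and 37857 nt. The intervals of dPspCas13b, with 58 sites, are wide, and their overlap does not show that the proteins are alike.

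In the last 2000 nt, the intervals of common sites and of sites of 1 protein overlapped. There lay 11 of 39 common dPspCas13b sites, or 28.2% (15.0 to 44.9), and 5 of 19 others, or 26.3% (9.15 to 51.2). For dRfxCas13d it was 26.2% (13.9 to 42.0) of common sites and 25.9% (23.1 to 28.9) of the others. MBIP (245 nt from the 3′ end), MNX1 (293 nt) and EIF4G3 (414 nt) were common sites near the end of the span. PPP1R9B at 2.77% of its span and CEP120 at 6.83% were common sites near the start, with TRIP6 at 8.33%.

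Other lists of the same proteins were placed along genes in part differently. Without guide, 46.9% (45.4 to 48.3) of dPspCas13b sites were in the last 2000 nt, above the interval of its EZH2g1 sites, and 31.7% (29.99 to 33.5) of dRfxCas13d sites. With EZH2g2, the first 2000 nt held 18.3% (15.3 to 21.6) of the sites of dPspCas13b, and 19.3% (17.6 to 21.2) for dRfxCas13d. With EZH2g1 those shares were 8.62% (2.86 to 19.0) and 8.51% (6.81 to 10.5). At the 3′ end, the last 2000 nt held 28.6% (25.04 to 32.4) of the EZH2g2 sites for dPspCas13b, near its EZH2g1 share, and 18.2% (16.5 to 20.0) for dRfxCas13d, below its EZH2g1 interval. At the start of genes, the intervals for dPspCas13b with EZH2g1 and EZH2g2 overlap, and those for dRfxCas13d do not.

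**Figure D3:**
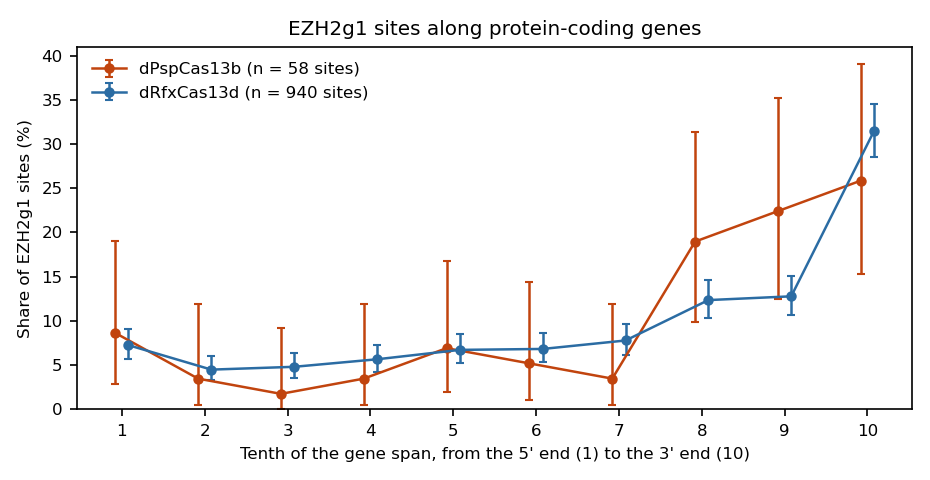
Share of EZH2g1 sites, in percent, in each 10% of the span of protein-coding genes from the 5′ to the 3′ end, for 58 dPspCas13b and 940 dRfxCas13d sites, with exact 95% intervals as error bars. Both lines are highest in the last 10% (25.9% and 31.5%) and the intervals of the proteins overlap in every such bin.

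Both strands were used nearly equally, with 30 of 59 dPspCas13b and 496 of 966 dRfxCas13d sites on the minus strand. The dPspCas13b sites were spread over 21 chromosomes, with 8 on chromosome 1, and the dRfxCas13d sites over 23, with 88 on chromosome 1. Overlap within the EZH2g1 lists was rare, as 59 dPspCas13b sites merged into 57 and 966 dRfxCas13d sites into 943.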

How the data were processed

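The deposited lists are BED files whose start and end positions in nt are the only values used. Trim Galore 0.0.6, STAR 2.7.9a and hg38 are named in the submitters' processing notes. The caller, its thresholds, duplicate removal and pooling of the 3 libraries of a group are not given in the sources used. Each list is tied to the first library of its group. Starts, counted from 0 in the deposited files, are given from 1.

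An overlap needed 1 nt or more on 1 strand. Each midpoint was assigned to a covering RefSeq gene (GRCh38.p14, the assembly of hg38) of matching or unlisted strand, small RNA genes first, then protein-coding, long noncoding and other genes, shortest on ties. Gene strand came from the RefSeq promoter table (27303 of 59679 genes), otherwise from the site, which was so for 10 dPspCas13b and 154 dRfxCas13d sites. More than 1 gene covered 3 and 45 sites. In the promoter table, overlapping windows on opposite strands were reverse complements in 2700 of 2700 cases. The members and gene lists were chosen with earlier results of these data known. Named genes are EZH2, EZH1, those of all pairs and of all sites of dPspCas13b alone, the 10 with most dRfxCas13d sites (with 4 tied genes added after their values were seen) and up to 6 members of each list with a site. A gene that this rule takes in is not reported here by name. Python 3.11.15, numpy 2.4.6, pandas 2.3.3, scipy 1.17.1 and matplotlib 3.10.9 were used. The code was tested on simulated sites, with 0 wrong answers under 5 overlap rules. Alternatives changed the overlap rule, strand, merging, width, pairing, 3′ window and gene rule.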

Additional observations from a re-analysis of the deposited data

How the results depend on the processing

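Of 52 values recomputed under another setting, 48 stayed within the interval of the reported value, or within 1.5 times it for counts. The interval was the exact one for shares and the order-statistic one over the pairs for medians. The common share of dPspCas13b sites ranged from 55.9% (33 of 59, with 50% or more of both sites shared) to 67.8%, and the median offset from 4.75 to 7 nt. The 4 others came from another window at the 3′ end: the last 1000 nt held 15.5% of dPspCas13b and 15.4% of dRfxCas13d sites, and the last 5000 nt 44.8% and 44.6%. No paired analysis was possible because each group has 1 list and no values per library, and for the same reason no library could be left out. Without read counts, sites missing from a list cannot be told apart from sites below its threshold.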

Other observations

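Lines of the lists do not follow genome order, and what orders them is not known. In the dRfxCas13d EZH2g1 list, common sites were most frequent among the first lines. Of the first 100 sites, 18 were common, or 18.0% (11.03 to 26.9), against 5 of the next 100 and 1 of the last 66. The first line was the FCF1 site and the third the SH3GLB1 site. SNAPIN stood at place 8, DYNLT1 at 10, BRIX1 at 11 and SEC63 at 15, while the first EZH2 site stood at 74. The median place was 175 for common sites and 498 for the others. In the dPspCas13b list no such gradient was seen: 13 of the first 20, 16 of the next 20 and 11 of the last 19 sites were common. There the first EZH2 site stood at place 1, TAB2 at 2 and SEC63 at 3.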
